A study of Ovis aries with 16 samples.

Results

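Brachiocephalic occlusion (BCO), a brief closure of the artery that carries blood towards the head and forelimbs, was set against a sham period in fetal sheep that had or had not been treated with estradiol. The subject here is the occlusion effect that both settings shared, taken as the average of the effect without estradiol and the effect with it. All 16 arrays of the series entered, 8 from occluded and 8 from sham fetuses, with RNA of 1 fetus on each array. Control fetuses were untreated and had a sham period of 10 min, and BCO fetuses were untreated and had an occlusion of 10 min. Estradiol fetuses received 250 ug per day for 5 days before a sham period, and estradiol+BCO fetuses received the same dose before an occlusion. Each of these groups held 4 fetuses, and no vehicle is named for the untreated ones. Every fetus, sham or occluded, carried chronic catheters and was bled repeatedly around the period, was 124 to 128 days old in a gestation of 147 days, and gave its hypothalamus 1 h after the period began.

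The hypothalamus governs the pituitary, appetite and the autonomic response to stress through small sets of peptide-making neurons. In the arcuate nucleus one set makes AGRP and NPY, which promote feeding, another makes the precursor POMC, and others make GHRH, which releases growth hormone, or neurokinin B from TAC3, which takes part in the control of reproduction. Peptide precursors are cut to active hormones by convertases such as PCSK1. Loss of flow to the brain lowers its supply of oxygen and glucose, to which glucose transporters, stress-inducible transcription factors and adhesion molecules of the vessel wall are known to respond.

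Signals are given as log2 of the scanner's processed signal minus the 75th percentile of the same array, so that 1 unit is a doubling and values of one probe can be compared between arrays but not between probes. Arrays were alike by scanner measures: the 75th percentile lay at 2024 to 2908 intensity units, local background at 56.5 to 65 units, and 77.27% to 86.45% of probes were well above background. Array weights, lower where an array strays more from the fit, differed more. They were 0.79, 1.12, 1.46 and 1.35 in control and 0.53, 0.78, 0.64 and 1.01 in BCO. In estradiol they were 1.62, 0.92, 1.36 and 1.34, and in estradiol+BCO 0.58, 1.20, 0.82 and 1.36. The main fit did not use them. Both of the slides used carried 2 fetuses from each of the groups, and slide was a term of the model. Of 15008 probes, 12940 were well above background on at least 4 arrays and were tested, and 1343 of those carried the name of 1 of 855 genes. Hypothalamic identity could be checked in part: SST, OXT, POMC, NPY and GAL were well above background on all 16 arrays. The lists of neuron and of oligodendrocyte markers had 0 named probes on this array. The p-values measure the spread between these 16 fetuses, and the number of arrays limits the precision.

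No probe passed the threshold for the shared effect. By limma with Benjamini-Hochberg adjustment 0 probes were higher (0.0%) and 0 lower (0.0%) in occluded fetuses at an adjusted p under 0.05, and the lowest adjusted p was 0.307. At an unadjusted p under 0.05 there were 1134 probes (8.76%), 603 of them higher (4.66%) and 531 lower (4.1%). The stricter question, whether a probe differed the same way in both strata, also gave 0 calls (0.0%), while 73 probes (0.564%) had the same sign and an unadjusted p under 0.05 in each stratum. Of those, 53 were higher (0.41%) and 20 lower (0.155%). The averaged effect was positive for 48.4% of probes and negative for 51.6%. The effects had the same sign in both strata for 6660 probes (51.5%), higher in 25.6% and lower in 25.9%, and for 448 of the 855 named genes. Every gene below is therefore given by its values, and none of them is a call.

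Complete separation of occluded from sham arrays was rare. All 4 occluded arrays lay beyond all 4 sham arrays for 522 probes without estradiol (4.03%) and for 652 with it (5.04%). For 12 probes (0.0927%) this held in both strata in the same direction, and for 29 (0.224%) in opposite directions. All 8 occluded arrays lay beyond all 8 sham arrays for 5 probes (0.0386%), of which 1 was lower (0.00773%) and 4 were higher (0.0309%). The lower one was the convertase PCSK1, and the 4 higher ones had no gene name in the tables used here. Single fetuses weighed on these counts. Without BCO replicate 2, 2 probes passed the adjusted threshold, both lower and unnamed. The 73 became 110 without BCO replicate 1, 37 without BCO replicate 4, 134 without estradiol+BCO replicate 2 and 45 without estradiol+BCO replicate 3.

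**Figure D1:**
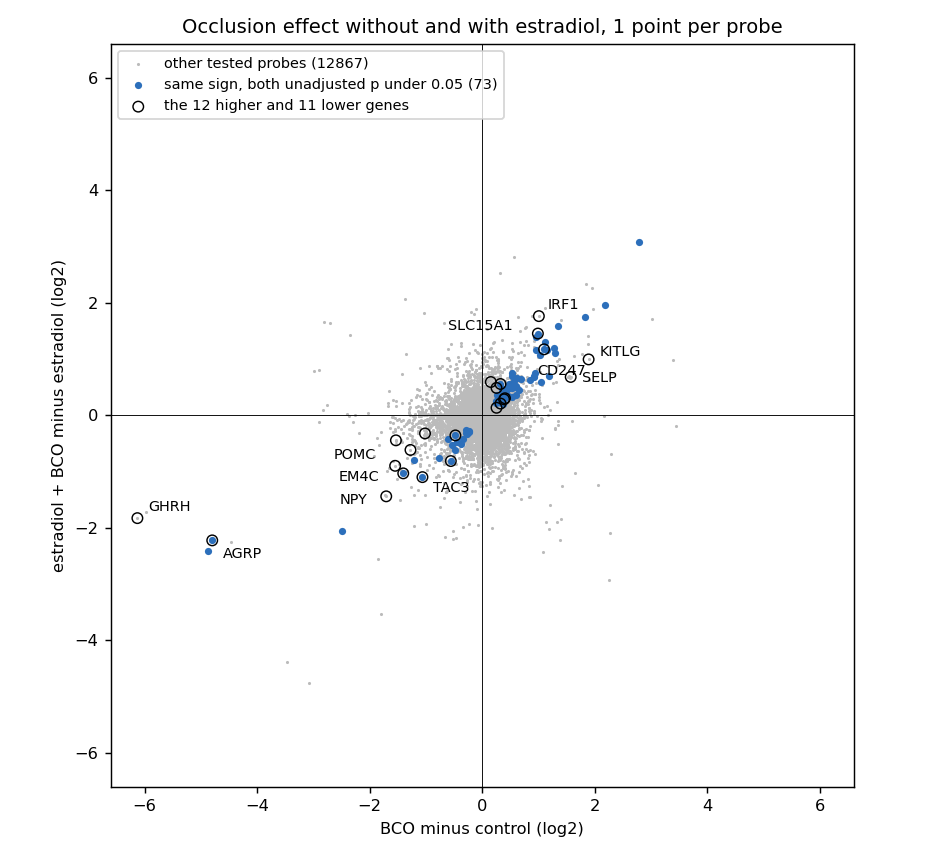
Occlusion effect of each of the 12940 tested probes without estradiol (horizontal axis, BCO minus control, log2) and with estradiol (vertical axis, estradiol+BCO minus estradiol, log2). Blue points are the 73 probes with the same sign and an unadjusted p under 0.05 in both strata, and rings mark the 12 higher and 11 lower genes of lowest p among named genes with the same sign; AGRP and GHRH lie far to the lower left, GHRH with BCO signals not well above background, and most probes form a round cloud at 0.

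Neuropeptide genes lay mostly on the lower side. Of the 16 that were measured, 14 were lower and 2 higher on average in occluded fetuses, where 51.6% and 48.4% of all probes were, with a median difference of -1.01 against -0.01 over all tested probes. At an unadjusted p under 0.05 there were 8 lower and 0 higher, a share to be read against 4.1% and 4.66% of all probes. In bulk tissue fewer cells of a type and less RNA per cell cannot be told apart. The median was -1.44 without estradiol and -0.06 with it, and 11 of the 16 had the same sign in both strata, 9 of them lower and 2 higher, where 25.9% and 25.6% of all probes did. Beside these genes stood the list of hypothalamic nucleus transcription factors, which also holds the receptor PTCH1. Its 4 measured members were lower on average, NR5A1 at -1.25, ISL1 at -0.75, PTCH1 at -0.31 and ARNT2 at -0.06, with a median of -0.53. Of the 4, 3 had the same sign in both strata. The mean log2 level of this list per array ran from -4.99 to -4.38 in control, -5.90 to -4.97 in BCO, -5.29 to -3.92 in estradiol and -5.31 to -4.46 in estradiol+BCO fetuses. How much these genes, or the exact tissue taken, account for the peptide values was not tested.

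AGRP, the melanocortin antagonist that drives feeding, had the lowest p among named genes on the lower side. Its levels were -1.19, -1.90, -0.56 and -0.53 in control and -5.53, -5.90, -6.35 and -5.59 in BCO fetuses. With estradiol they were -0.14, 0.92, -4.16 and -4.88 under sham and -3.32, -1.45, -6.57 and -5.80 after occlusion. The 4 BCO arrays lay below all 4 control arrays without overlap, whereas with estradiol both groups ran over a wide range and overlapped. The averaged difference was -3.51 ± 0.72 (SE; limma adjusted p = 0.307), made up of -4.80 without and -2.22 with estradiol. In both estradiol-treated groups the arrays of slide 1 were higher than those of slide 2, and within each slide the average was -3.47 (slide 1) and -3.55 (slide 2). The array carries a second AGRP probe, at -3.64 on average. Both probes are shown because they read nearly the same stretch of the transcript, so their likeness is not independent evidence; the 52 bases that they share are in capitals, 5′ to 3′ as the files give them.
AGRP probe A_70_P002721: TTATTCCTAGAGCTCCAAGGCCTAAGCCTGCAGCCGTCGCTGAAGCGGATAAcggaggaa
AGRP probe A_70_P002722: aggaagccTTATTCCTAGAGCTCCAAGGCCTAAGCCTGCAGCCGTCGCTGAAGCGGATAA

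The GHRH gene, whose peptide drives growth hormone release, was read by a probe that was not well above background after BCO alone. Control fetuses were at -4.19, -2.07, -1.47 and -1.20 and BCO fetuses at -8.38, -7.76, -7.74 and -9.57. In the estradiol stratum sham fetuses were at -0.61, 0.06, -3.28 and -6.86 and occluded ones at -2.48, -1.29, -7.52 and -6.70. The probe was well above background on all 4 control arrays and on 0 of 4 BCO arrays, so the level after BCO is a bound: it was at least 44.8-fold lower than control, computed against the lowest signal well above background on each array. With estradiol the groups overlapped, and 3 of 4 occluded arrays were above background. The fitted average was -3.98 ± 0.94 (SE; limma adjusted p = 0.327), from -6.13 without and -1.83 with estradiol. This average rests on dim values in BCO and became -2.18 with normexp background correction, which compresses dim signals, against -2.58 for AGRP. With that correction the effects were -3.09 without and -1.27 with estradiol. The pair of GHRH probes shares 58 of 60 bases, in capitals here.
GHRH probe A_70_P024161: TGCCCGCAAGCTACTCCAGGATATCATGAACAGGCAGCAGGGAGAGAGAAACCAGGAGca
GHRH probe A_70_P024162: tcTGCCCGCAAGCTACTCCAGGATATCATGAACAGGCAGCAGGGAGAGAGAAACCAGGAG

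NPY, made by the same neurons as AGRP, was lower on average in both strata. It stood at 1.35, 0.91, 1.92 and 2.27 in control and -0.78, 1.20, 0.10 and -0.89 in BCO fetuses, and at 2.45, 3.11, -0.26 and -0.09 against 0.03, 1.44, -0.94 and -1.06 with estradiol. Without estradiol 1 BCO fetus, at 1.20, lay within the control range and the others below it, and with estradiol the groups overlapped, the 2 sham arrays of slide 2 lying among the occluded ones. The average was -1.57 ± 0.48 (SE; limma adjusted p = 0.437), from -1.71 and -1.44, and each slide alone gave -1.48 and -1.66. POMC, precursor of ACTH, melanocortins and beta-endorphin, was at 0.90, 0.71, 1.34 and 1.99 in control and -0.26, -0.01, -0.28 and -0.69 in BCO. Its estradiol-treated sham fetuses were at 2.16, 2.10, 0.41 and 0.38 and their occluded counterparts at 0.40, 1.74, 0.00 and -0.69. All BCO values lay below all control values, while with estradiol the groups overlapped. The POMC average was -1.22 ± 0.33 (SE; limma adjusted p = 0.354), with -1.55 and -0.90 in the strata.

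TAC3, which encodes neurokinin B, was the peptide gene whose occluded and sham arrays did not overlap in either stratum. The values were -1.68, -1.99, -2.23 and -2.49 in control against -3.06, -3.30, -2.69 and -3.59 in BCO, and -2.39, -0.19, -2.13 and -2.32 in estradiol against -2.66, -2.81, -3.52 and -2.43 in estradiol+BCO. Across strata the ranges touched, since the estradiol+BCO fetus at -2.43 lay above the control fetus at -2.49. The averaged difference of -1.08 ± 0.28 (SE; limma adjusted p = 0.354) was made up of -1.06 without and -1.097 with estradiol, and the slides gave -1.40 and -0.76. The part with estradiol leaned on estradiol replicate 2, at -0.19, and was -0.60 without that fetus. PCSK1, the convertase that starts the cutting of POMC and other precursors, was apart across the strata too. Its levels were -1.90, -1.94, -2.22 and -2.19 in control, -2.54, -2.46, -2.38 and -3.11 in BCO, -2.11, -1.53, -1.72 and -2.04 in estradiol and -2.34, -2.44, -3.49 and -2.37 in estradiol+BCO fetuses. The highest occluded value, -2.34, was below the lowest sham value, -2.22, over all 16 arrays. PCSK1 averaged -0.68 ± 0.16 (SE; limma adjusted p = 0.321), a 1.61-fold difference, with -0.56 without estradiol, -0.81 with it, and -0.58 and -0.79 on the slides. Each is read by a single probe, shown here whole because these 2 are the named genes among the 12 probes that were apart in both strata.
TAC3 probe A_70_P026666: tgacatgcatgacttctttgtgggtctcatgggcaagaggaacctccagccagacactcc
PCSK1 probe A_70_P041281: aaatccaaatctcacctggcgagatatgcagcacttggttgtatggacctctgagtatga

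**Figure D2:**
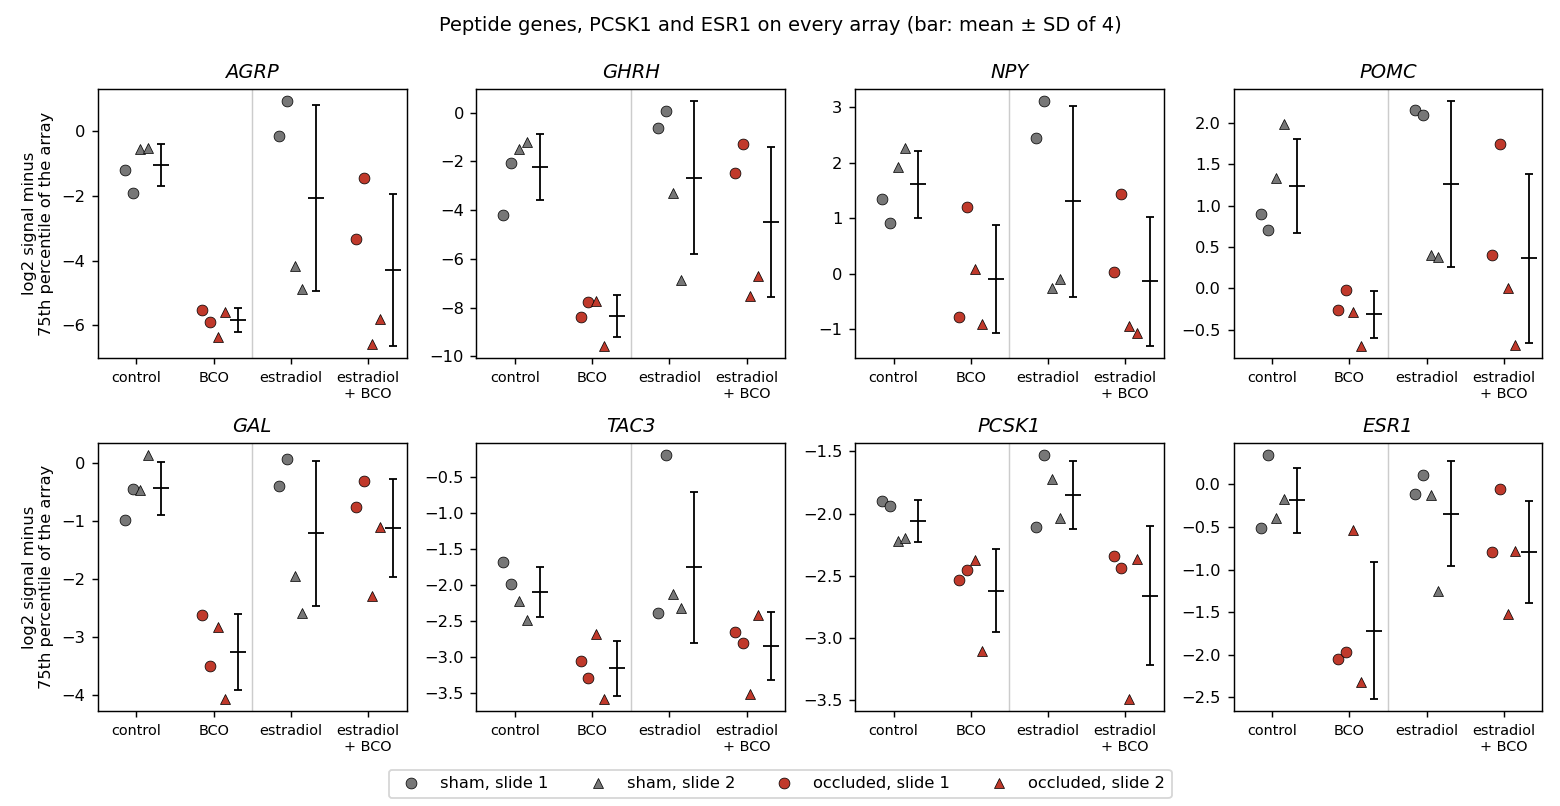
Log2 signal minus the array's 75th percentile on every array for AGRP, GHRH, NPY, POMC, GAL, TAC3, PCSK1 and ESR1, by group; circles are slide 1, triangles slide 2, and bars show mean ± SD of 4 fetuses. Occluded arrays of PCSK1 lie below every sham array, while AGRP, GHRH, NPY and GAL spread widely by slide within the estradiol-treated groups.

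Other peptide genes were mixed. GAL, the neuropeptide galanin, averaged -1.36 ± 0.35 (SE; limma adjusted p = 0.354), yet this came from the stratum without estradiol alone: -2.82 there and 0.10 with estradiol. The difference between the strata was 2.92 ± 0.70 (SE; limma adjusted p = 0.198). Somatostatin, SST, which restrains growth hormone, was at -1.32 and -0.10. Oxytocin, OXT, was at -2.71 without estradiol and 1.64 with it, so its average of -0.53 ± 0.64 (SE) describes neither stratum. ADCYAP1, the precursor of the peptide PACAP, was at -0.98 and -0.96 (average -0.97 ± 0.33, SE; limma adjusted p = 0.454). Its control fetuses ran from 3.61 to 4.42 and its BCO fetuses from 1.098 to 3.55, with 1 BCO fetus at 1.098 far below the others, without which the effect there was -0.40. With estradiol the ranges were 3.99 to 4.63 under sham and 2.72 to 4.18 after occlusion, so the groups were apart in the first stratum and overlapped in the second. The members on the higher side were PMCH, melanin-concentrating hormone, at 0.20, and UCN, urocortin, at 0.34.

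The receptor ESR1 and stress-axis genes lay on the lower side as well. ESR1, the estrogen receptor alpha, was at -0.52, 0.35, -0.39 and -0.17 in control and -2.05, -1.97, -0.53 and -2.32 in BCO, with no overlap but a narrow gap. With estradiol it was at -0.12, 0.11, -0.13 and -1.25 under sham and -0.80, -0.05, -1.52 and -0.79 after occlusion, where the groups overlapped. Its average was -0.99 ± 0.29 (SE; limma adjusted p = 0.429), from -1.53 and -0.44. CRHBP, which binds and sequesters corticotropin-releasing hormone, averaged -0.67 ± 0.20 (SE), from -1.02 and -0.32. Its BCO values of -0.34, -1.29, -0.31 and -1.11 lay below the control values of -0.08, 0.20, 0.24 and 0.66, and with estradiol the occluded values of -0.24, 0.71, -0.56 and -0.27 overlapped the sham values of 0.29, 0.16, 0.37 and 0.09. The estrogen receptor beta, ESR2, was at -0.33 on average, the progesterone receptor PGR at 0.03 and the glucocorticoid receptor NR3C1 at -0.20 ± 0.13 (SE).

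In the adrenal stress axis list 10 of 13 measured genes were lower, with a median of -0.41, and 5 were lower at an unadjusted p under 0.05 against 4.1% of all probes. Those were NR5A1, POMC, PCSK1, CRHBP and HSD11B1, the enzyme that regenerates active cortisol, at -0.46 ± 0.21 (SE). NR5A1 encodes a nuclear receptor that marks the ventromedial hypothalamus and was well above background on 7 of 16 arrays, at -2.19 without and -0.31 with estradiol. POMC and PCSK1 also belong to the pituitary markers, of which 7 of 10 measured were lower, with a median of -1.02. The summed level of these markers, on the scale where the 75th percentile is 1, ran from 5.85 to 12 in control, 4.77 to 6.79 in BCO, 6.75 to 19.4 in estradiol and 5.45 to 8.07 in estradiol+BCO. CGA, the common subunit of the glycoprotein hormones, averaged -3.92 ± 1.46 (SE), with sham fetuses at -6.47 to 3.45 and occluded ones at -9.38 to 0.01. Of the defining pituitary hormones GH was well above background on 4 of 16 arrays and FSHB on 9, while prolactin, PRL, was so on all 16, at -2.26 without and 0.00 with estradiol. The part that pituitary tissue plays in the POMC and PCSK1 values was not tested.

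Among the remaining named genes of lowest p on the lower side were SLIT2, a secreted guidance cue for axons, at -0.42 ± 0.11 (SE), and 2 transcripts known here only by the names in the files, EM4C and TCRD19. SLIT2 was at -6.12, -5.54, -5.77 and -5.76 in control and -6.40, -6.16, -6.16 and -6.39 in BCO, with no overlap, and at -5.97, -5.35, -5.76 and -5.96 in estradiol against -6.17, -6.04, -6.33 and -5.93 in estradiol+BCO, with overlap. A second SLIT2 probe, sharing 25 bases, gave -0.88. EM4C was at -0.40, -1.59, -1.60 and -0.34 in control and -1.92, -2.79, -2.40 and -2.44 in BCO, without overlap, and at -0.16, -2.28, -0.89 and -1.19 in estradiol against -1.69, -1.43, -2.57 and -2.96 in estradiol+BCO, with overlap. It averaged -1.22 ± 0.32 (SE), at -1.40 and -1.03 in the strata. TCRD19 averaged -0.94 ± 0.28 (SE) but was well above background on 12 of 16 arrays only and moved to -0.30 under normexp correction. A second TCRD19 probe, sharing 5 bases, gave -0.33, with -0.80 without and 0.14 with estradiol.

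On the higher side were both main glucose transporters of the brain. SLC2A3 (GLUT3), the high-affinity transporter of neurons, was at 3.48, 3.60, 3.57 and 3.41 in control and 3.69, 3.48, 4.10 and 4.10 in BCO fetuses. With estradiol it was at 3.15, 3.56, 3.56 and 3.76 under sham and 4.00, 3.83, 3.96 and 4.46 after occlusion. In the estradiol stratum every occluded array exceeded every sham array, and in the other stratum 1 BCO array lay among the controls. The average was 0.44 ± 0.10 (SE; limma adjusted p = 0.321), a 1.36-fold difference, from 0.32 and 0.56, and each slide alone gave 0.30 and 0.58. A second probe sharing only 8 bases with the first gave 0.28. SLC2A1 (GLUT1), the transporter of the blood-brain barrier, was at 1.1, 1.31, 1.41 and 1.12 in control, 1.73, 1.38, 1.52 and 1.34 in BCO, 1.21, 1.11, 1.21 and 1.31 in estradiol and 1.46, 1.23, 1.82 and 1.56 in estradiol+BCO. Its groups overlapped in both strata, and its parts of 0.26 and 0.31 averaged 0.28 ± 0.09 (SE; limma adjusted p = 0.437). A second SLC2A1 probe, sharing 59 bases, gave 0.17, with 0.07 without and 0.27 with estradiol.

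The insulin-responsive transporter SLC2A4 went the other way, at -0.66 ± 0.22 (SE), with -0.37 and -0.94 in the strata. Over the whole list of hypoxia, glucose transport and glycolysis 11 of 16 measured genes were higher and 5 lower. The list median was 0.04, and -0.03 with normexp correction, so the list had no settled direction. LDHA, which makes lactate, was at 0.22 ± 0.12 (SE), the angiogenic factor VEGFA at 0.19 ± 0.14, and the hypoxia-inducible factor HIF1A at 0.00. At the level of single genes, 3 members had an unadjusted p under 0.05, SLC2A3 and SLC2A1 higher and SLC2A4 lower, where 8.76% of all probes did.

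**Figure D3:**
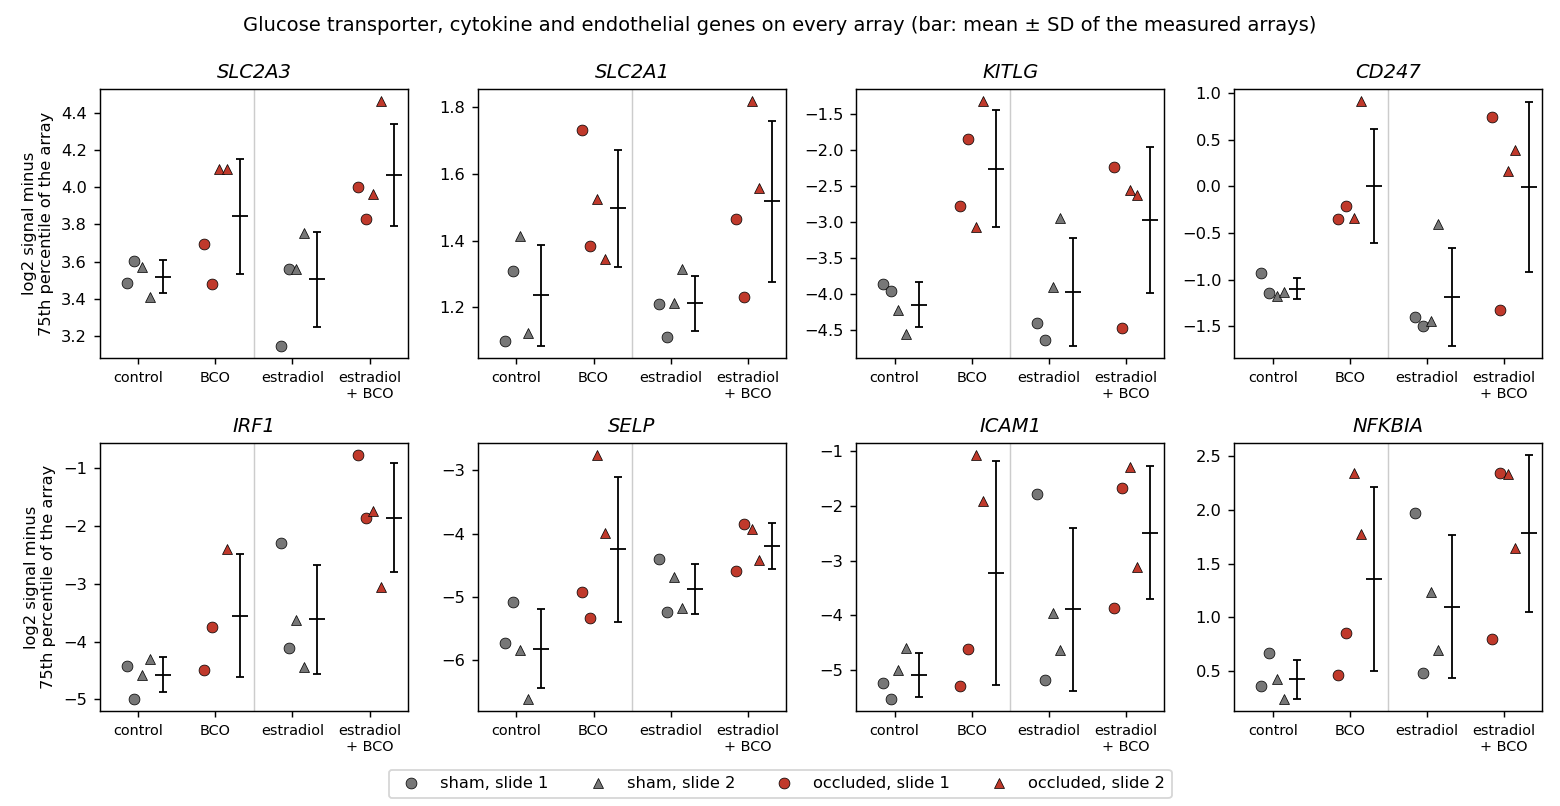
Log2 signal minus the array's 75th percentile on every array for SLC2A3, SLC2A1, KITLG, CD247, IRF1, SELP, ICAM1 and NFKBIA, by group; circles are slide 1, triangles slide 2, and bars show mean ± SD (1 IRF1 value of BCO was set to missing). SLC2A3 is higher in all 4 estradiol+BCO fetuses than in any estradiol fetus, and ICAM1 and NFKBIA are high in some fetuses of 3 groups and in no control fetus.

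KITLG and CD247 were higher in most occluded fetuses, with the same exceptions. KITLG, the ligand of the KIT receptor (stem cell factor), was at -3.86, -3.96, -4.22 and -4.56 in control and -2.78, -1.86, -3.08 and -1.33 in BCO, without overlap. With estradiol it was at -4.40, -4.63, -3.91 and -2.95 under sham and -2.24, -4.47, -2.56 and -2.63 after occlusion. The estradiol+BCO fetus at -4.47 lay among the sham fetuses, and the estradiol fetus at -2.95 lay near the occluded ones. The average was 1.44 ± 0.35 (SE; limma adjusted p = 0.336), a 2.72-fold difference, from 1.89 and 0.99. CD247, a signalling chain of the T cell receptor complex, was at -0.93, -1.15, -1.18 and -1.13 in control, -0.35, -0.21, -0.34 and 0.91 in BCO, -1.39, -1.50, -1.44 and -0.40 in estradiol and 0.75, -1.33, 0.16 and 0.39 in estradiol+BCO. The same estradiol+BCO fetus, replicate 2, was the lowest occluded one, at -1.33, and the same estradiol fetus, replicate 4, the highest sham one, at -0.40. CD247 averaged 1.14 ± 0.27 (SE; limma adjusted p = 0.336), with 1.099 and 1.17. CD3E, another chain of that complex, was at -0.40 ± 0.28 (SE), and 4 of 5 measured markers of microglia and leukocytes were lower on average, with a median of -0.08. The KITLG probes overlap by 20 bases, shown in capitals, so they read largely different stretches, and gave 1.44 and 1.53.
KITLG probe A_70_P017021: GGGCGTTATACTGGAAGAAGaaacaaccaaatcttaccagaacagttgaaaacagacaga
KITLG probe A_70_P017022: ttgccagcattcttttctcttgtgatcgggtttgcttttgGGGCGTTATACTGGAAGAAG

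Genes of vascular and cytokine activation were higher in some occluded fetuses and not in others. IRF1, a transcription factor of the interferon response, was at -4.43, -5.00, -4.58 and -4.30 in control and -4.49, -3.75 and -2.40 in the 3 measured BCO fetuses, the spot of replicate 3 having been set to missing. With estradiol it was at -2.29, -4.11, -3.63 and -4.44 under sham and -0.76, -1.86, -1.73 and -3.06 after occlusion. Both strata overlapped, and the average was 1.39 ± 0.41 (SE; limma adjusted p = 0.436). SELP, the P-selectin by which activated endothelium and platelets catch leukocytes, stood at -5.73, -5.08, -5.85 and -6.63 in control, -4.92, -5.34, -2.75 and -3.98 in BCO, -4.40, -5.24, -4.70 and -5.17 in estradiol and -4.59, -3.85, -3.92 and -4.41 in estradiol+BCO. It averaged 1.13 ± 0.33 (SE; limma adjusted p = 0.429), with 0.44 on slide 1 and 1.82 on slide 2, and the groups overlapped in both strata. A second SELP probe, sharing 5 bases, gave 1.26. ICAM1, an adhesion molecule of endothelium, was named after its value was seen, as the member of the inflammation list with the largest difference. It was at -5.24, -5.54, -5.00 and -4.60 in control, -5.29, -4.62, -1.06 and -1.91 in BCO, -1.78, -5.19, -3.95 and -4.64 in estradiol and -3.88, -1.67, -1.28 and -3.12 in estradiol+BCO. The high BCO fetuses were replicates 3 and 4, both on slide 2, and 1 sham fetus, estradiol replicate 1, lay between them. Its average was 1.64 ± 0.63 (SE; limma adjusted p = 0.488).

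NFKBIA, the inhibitor that NF-kappa-B induces to end its own activity, followed the same fetuses, at 0.37, 0.67, 0.43 and 0.24 in control, 0.46, 0.85, 2.34 and 1.78 in BCO, 1.97, 0.49, 1.24 and 0.69 in estradiol and 0.80, 2.34, 2.33 and 1.65 in estradiol+BCO, and averaged 0.81 ± 0.30 (SE). In the cytokine IL1A the high BCO fetuses were again replicates 3 and 4: the values were -5.74, -5.34, -5.12 and -4.85 in control, -4.93, -5.65, -2.86 and -3.73 in BCO, -3.99, -4.90, -4.26 and -4.96 in estradiol and -4.29, -3.16, -2.90 and -4.46 in estradiol+BCO. IL1A averaged 0.90 ± 0.34 and TNF 0.58 ± 0.21 (SE), while IL6 was lower at -0.37 ± 0.13 and IL1B at -0.08 ± 0.11. Of 32 measured inflammation genes 21 were higher and 11 lower, and 6 were higher and 1 lower at an unadjusted p under 0.05, against 4.66% and 4.1% of all probes. Of the endothelial and mural markers, 4 of 7 measured were lower and 3 higher, with a median of -0.08. The inflammation list's median was 0.05, and -0.01 with normexp correction. PTGS2, the inducible cyclooxygenase, was at -0.04 ± 0.40 (SE), whereas SLCO2A1, which carries prostaglandins into cells for removal, was at 0.37 ± 0.11 (SE), from 0.25 and 0.49.

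The remaining higher genes had small differences, except SLC15A1, which was read by a dim probe. PDXK, the kinase that activates vitamin B6, was at 0.62, 0.29, 0.36 and 0.40 in control, 0.58, 0.51, 0.68 and 0.51 in BCO, 0.27, 0.30, 0.19 and 0.55 in estradiol and 1.08, 0.69, 0.82 and 1.102 in estradiol+BCO. Its estradiol+BCO arrays exceeded all other arrays but its BCO arrays overlapped the controls. PDXK averaged 0.37 ± 0.08 (SE; limma adjusted p = 0.307), and most of this came from the stratum with estradiol: 0.15 without and 0.59 with it. GGCX, the vitamin K-dependent carboxylase, was at -3.03, -3.11, -3.10 and -3.07 in control and -3.05, -2.73, -2.49 and -2.49 in BCO, and at -3.08, -2.99, -3.09 and -2.90 in estradiol against -2.84, -2.96, -2.55 and -2.57 in estradiol+BCO. Slide 2 held the high occluded fetuses of both strata, and GGCX averaged 0.34 ± 0.08 (SE), with 0.39 and 0.29, and its second probe, which shares 59 bases, gave 0.23. The anti-apoptotic MCL1 was at -1.78, -1.54, -1.50 and -1.63 in control and -1.22, -1.44, -1.12 and -1.37 in BCO, without overlap, while with estradiol -1.47, -1.58, -1.65 and -1.50 and -1.09, -1.50, -1.28 and -1.50 overlapped. MCL1 averaged 0.27 ± 0.08, the actin-severing cofilin CFL1 0.19 ± 0.06 and the prion-like PRND 0.35 ± 0.10 (SE each). A second CFL1 probe, sharing 59 bases, gave 0.09, with 0.02 without and 0.16 with estradiol. A second PRND probe, sharing 5 bases, gave -0.14, so the probes of PRND disagree in sign. SLC15A1, a transporter of small peptides, averaged 1.22 ± 0.27 (SE; limma adjusted p = 0.307). It was well above background on 1 control, 2 BCO, 2 estradiol and 4 estradiol+BCO arrays, and normexp correction reduced it to 0.11.

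**Figure D4:**
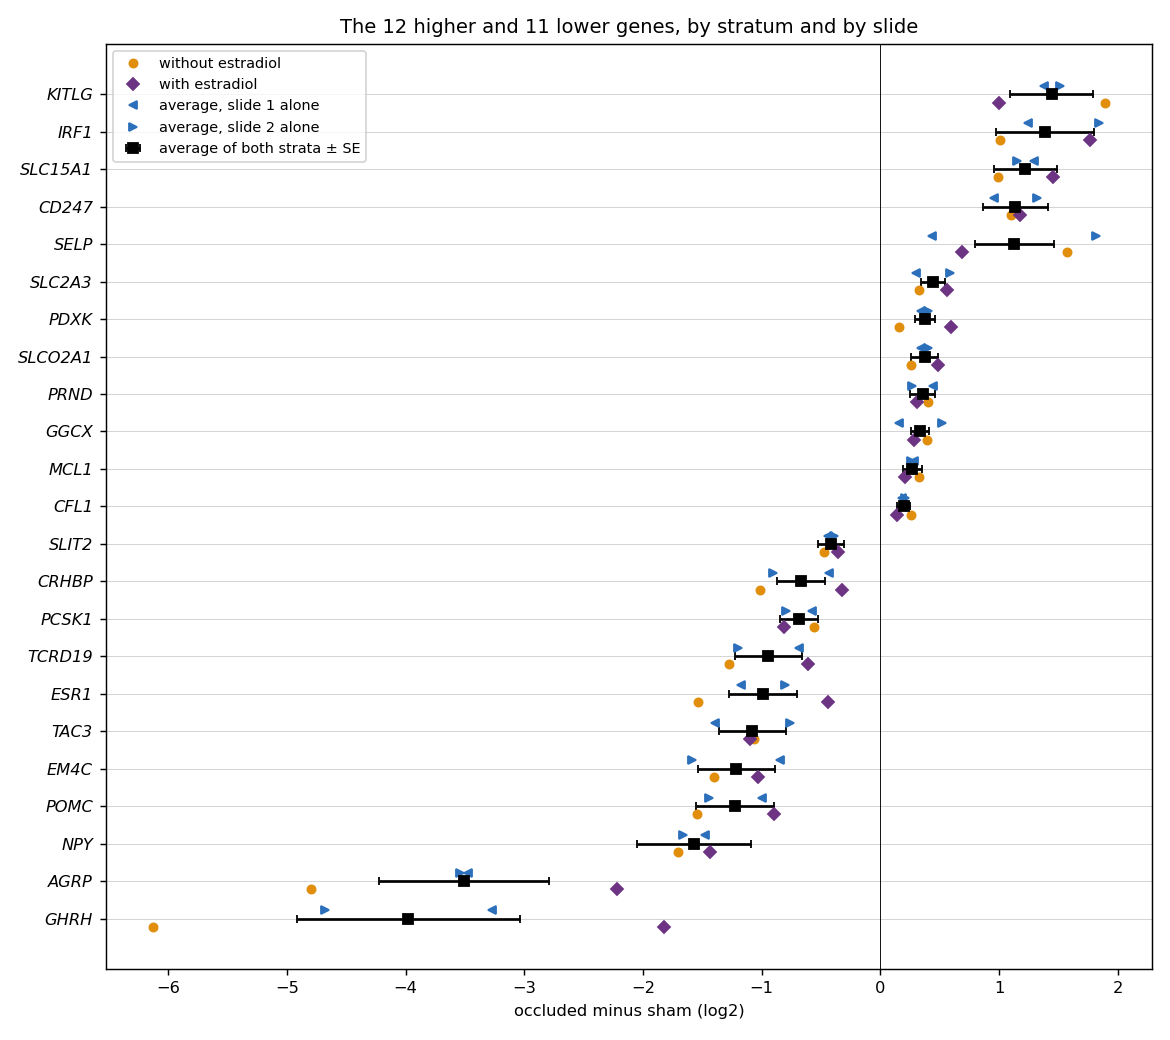
Occluded minus sham (log2) for the 12 higher and 11 lower named genes of lowest p with the same sign in both strata: black squares with bars are the average ± SE, circles the effect without estradiol, diamonds the effect with estradiol, and triangles the average within each slide. AGRP lies further below 0 without estradiol than with it, the GHRH point without estradiol rests on BCO signals not well above background, and SELP differs most between slides among the higher genes.

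These 23 genes were chosen by this contrast, so their separation is a description, given beside 4.03% of all probes apart without estradiol and 5.04% with it. Among the 11 lower ones the groups did not overlap for 9 without estradiol, for 2 with it, and for 2 in both strata (PCSK1 and TAC3). Of the 12 higher ones they did not overlap for 3 without estradiol, for 4 with it, and for 0 in both. Individual occluded fetuses differed in how often they failed to lie beyond every sham fetus of their stratum in the direction of the average. Estradiol+BCO replicate 2 did so for 14 of the 23 genes and replicates 1 and 4 for 9 and 7, while replicate 3 did so for 1. In the BCO group the counts were 4, 8, 1 and 2 for replicates 1 to 4, IRF1 being missing in replicate 3. Of the 855 named genes, 9 had the same sign and an unadjusted p under 0.05 in both strata. Most of the 23 therefore reached that level in 1 stratum at most. With estradiol the unadjusted limma p was 0.191 for GHRH, 0.297 for ESR1, 0.277 for CRHBP and 0.172 for SELP. Without estradiol it was 0.214 for PDXK and 0.115 for IRF1. The averages by slide had the same sign on both slides for each of the 23 genes. Within slide 1, however, the strata differed in sign for TCRD19, at -1.53 without and 0.15 with estradiol. The same held there for CRHBP, at -0.87 and 0.01. With normexp correction 3 of the 23 no longer had the same sign in both strata: SLC15A1 at 0.235 without and -0.02 with estradiol, PRND at 0.23 and -0.02, and PDXK at -0.02 and 0.57.

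Of the 73 probes with the same sign and an unadjusted p under 0.05 in both strata, 59 (80.8%) had no gene name, where 89.6% of all tested probes had none. Probe A_70_P040146 separated all 16 arrays: it was at -1.65, -1.82, -1.64 and -1.66 in control, -1.32, -1.49, -1.24 and -1.23 in BCO, -1.75, -1.78, -1.55 and -1.59 in estradiol and -1.54, -1.53, -1.34 and -1.46 in estradiol+BCO. Every occluded value exceeded every sham value, by a margin as narrow as -1.54 against -1.55, and the average was 0.29 ± 0.05 (SE; limma adjusted p = 0.307). The other unnamed probes with all 8 occluded arrays above all 8 sham arrays were not among the 73. Without estradiol their unadjusted limma p was 0.0848 for A_70_P067426, 0.0592 for A_70_P025166 and 0.212 for A_70_P025181. Probe A_70_P067426 ran from -4.42 to -3.92 in sham and from -3.79 to -2.33 in occluded fetuses. A_70_P025166 ran from 1.73 to 1.99 in sham and from 1.998 to 2.26 in occluded ones. The fourth, A_70_P025181, ran from -2.01 to -1.63 in sham and from -1.57 to 0.06 in occluded fetuses, where a single estradiol+BCO fetus at 0.06 stood above the rest. Their sequences are given whole, since no gene name identifies these transcripts here.
A_70_P040146: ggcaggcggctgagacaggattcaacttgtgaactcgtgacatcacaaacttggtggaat
A_70_P067426: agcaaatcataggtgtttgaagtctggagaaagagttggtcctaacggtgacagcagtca
A_70_P025166: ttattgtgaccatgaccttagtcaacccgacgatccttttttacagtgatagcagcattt
A_70_P025181: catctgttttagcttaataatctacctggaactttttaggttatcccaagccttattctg

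Among the 73, the largest differences after AGRP fell on 2 unnamed probes, which were picked after their values were seen. Probe A_70_P066736 was at -4.70, -5.60, -5.43 and -6.78 in control and -3.04, -2.90, -3.70 and -1.71 in BCO, and at -8.77, -7.51, -4.13 and -2.95 in estradiol against -1.48, -4.58, -1.88 and -3.12 in estradiol+BCO. The BCO fetuses lay above all controls, while with estradiol the sham fetuses split by slide, low on slide 1 and high on slide 2, and overlapped the occluded ones. It averaged 2.93 ± 0.73 (SE; limma adjusted p = 0.336), and 1.54 with normexp correction. On the lower side A_70_P049313, described in the files as like a bovine prostaglandin F synthase, averaged -2.27 ± 0.66 (SE) but was well above background on 6 of 16 arrays and gave -0.59 with normexp correction.
A_70_P066736: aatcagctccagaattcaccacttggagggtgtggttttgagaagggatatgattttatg
A_70_P049313: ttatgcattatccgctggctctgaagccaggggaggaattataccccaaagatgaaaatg

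Several pathways often studied after loss of flow had medians near that of all probes, -0.01. Of 8 immediate early genes, each read by its brightest probe, 4 were higher and 4 lower, with a median of 0.03 and 0 at an unadjusted p under 0.05. FOS was at -0.02 without and 0.59 with estradiol, EGR1 at 0.00 on average, and JUNB at 0.59 ± 0.29 (SE; limma adjusted p = 0.594), with 0.22 on slide 1 and 0.97 on slide 2. A second JUNB probe, sharing 59 bases, gave 0.65 ± 0.27 (SE; limma unadjusted p = 0.0316). A second EGR1 probe, sharing 22 bases and well above background on 10 arrays, gave 0.65 ± 0.35 (SE). Chaperones and genes of the unfolded protein response had a median of -0.02 over 9 genes, of which 2 had the same sign in both strata. Glutamate and GABA genes also had a median of -0.02, over 12 genes, but of 0.17 without and -0.20 with estradiol. Of these 12 genes 3 had the same sign in both strata, where 51.5% of all probes did, so this average describes neither stratum. Of 10 apoptosis genes 6 were higher, with a median of 0.08. Cell cycle genes were higher in 9 of 10, with a median of 0.10, and 3 had an unadjusted p under 0.05 against 4.66% of all probes: the kinases CDK1 at 0.46 ± 0.18 and AURKA at 0.31 ± 0.11, and the cyclin CCNA2 at 0.43 ± 0.18 (SE each).

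Of 12 appetite and energy receptors 9 were lower, with a median of -0.08; NPY1R, a receptor of NPY, was at -0.27 ± 0.11 (SE), with -0.53 ± 0.17 (SE) on another probe that shares 59 bases and is among the 73, at -0.53 and -0.52 in the strata, and the leptin receptor LEPR at -0.76 ± 0.49. Fibroblast and meningeal markers were lower on average in 5 of 5, with a median of -0.27, and 3 of the 5 had the same sign in both strata. Their median was -0.01 without and -0.53 with estradiol, and the collagen gene COL1A2 was at -0.03 without and -0.86 with it. Choroid plexus and ependymal markers were lower in 3 of 3, with a median of -0.82, or -0.16 on slide 1 and -1.12 on slide 2. Of these TTR, the transthyretin of that epithelium, ran from -1.09 to 3.69 in sham and from -2.51 to 3.85 in occluded fetuses. Astrocyte markers had a median of -0.13 over 6 genes, but of 0.19 without and -0.33 with estradiol, and 2 of the 6 had the same sign in both strata. Globin HBB, a marker of blood, was at 0.67 ± 0.58 (SE). The part of these cell types in the gene values above was not tested.

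**Figure D5:**
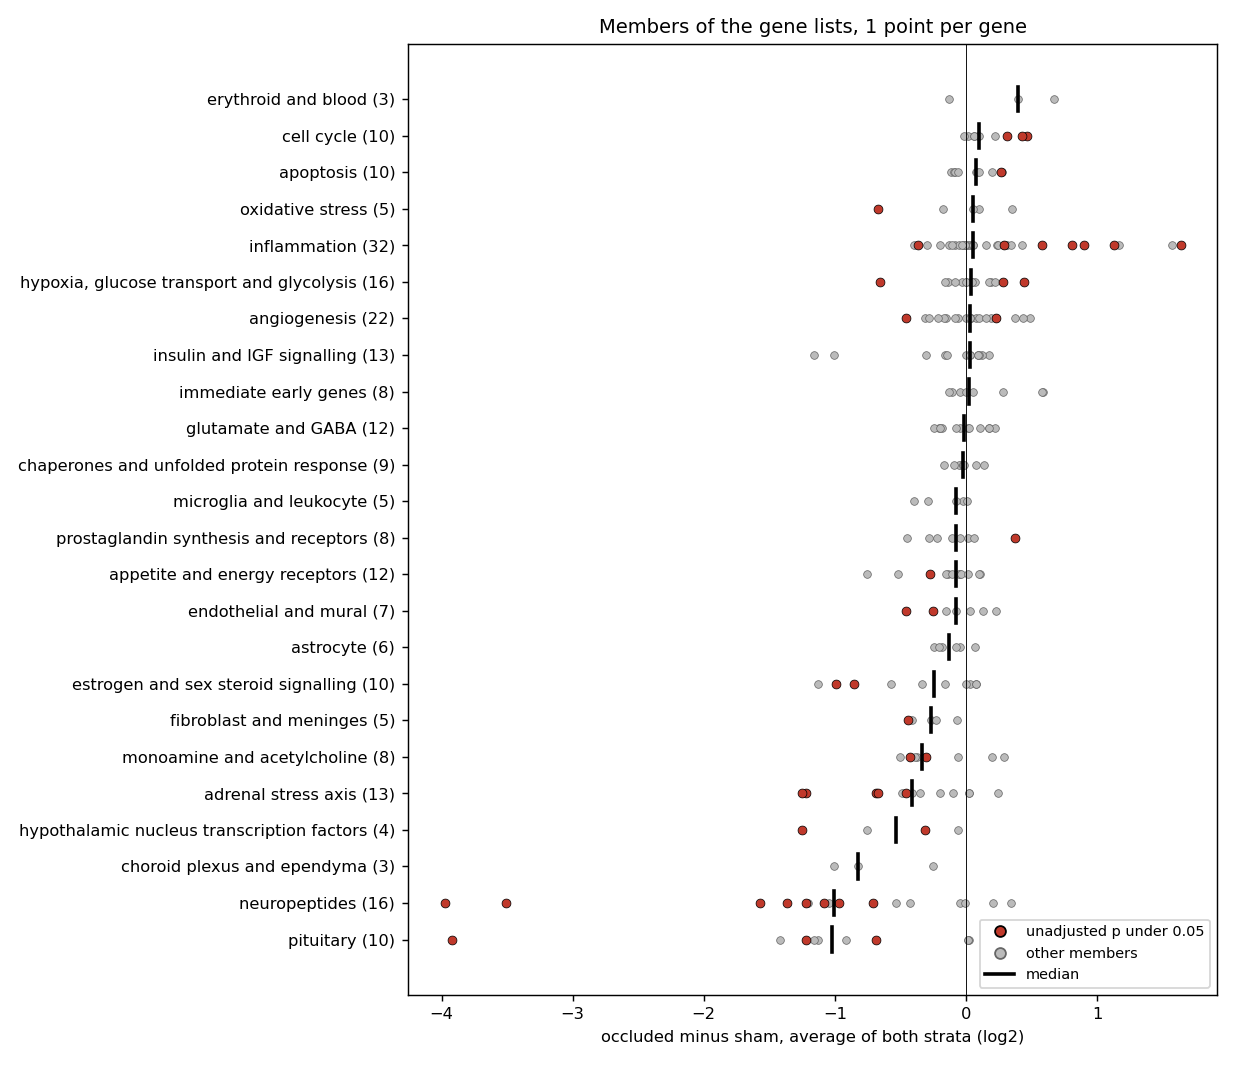
Averaged occlusion effect (occluded minus sham, log2) of every measured member of the 24 lists with at least 3 measured genes, 1 point per gene; red points have an unadjusted p under 0.05, black bars are medians, and the number of genes is in brackets. Pituitary and neuropeptide lists have medians near -1.0, the choroid plexus and ependyma list one of -0.82, and most other lists are centred near 0.

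Some single probes also lay on opposite sides in the 2 strata. The difference between the strata passed limma's adjusted p under 0.05 for 3 probes (0.0232%), none of them named: A_70_P055401, A_70_P036801 and A_70_P005946. Among named genes AGGF1, an angiogenic factor, was at 0.44 without and -0.29 with estradiol, FTO, a demethylase linked to body mass, at 0.30 and -0.50, and PSIP1, a chromatin-bound coactivator, at 0.43 and -0.47. The adjusted p for their differences between strata was 0.0894, 0.137 and 0.198 by limma, so none passed.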

How the data were processed

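Hypothalamic RNA of 16 fetal sheep, 500 ng per array and RIN 7.4 to 8.4 per the labels' protocols, was labelled with Cy3 and read on a single-colour Agilent ovine array (design 019921) with Feature Extraction 10.1.1.1, per the file headers. The deposited scanner files hold a processed signal as an intensity, background-subtracted by the authors' scanner software, and the deposited value table holds log2 values that match those signals after centring each array on the median of its features. Spot flags of other kinds in the deposited files marked outliers (2 to 36 spots per array set to missing) and spots well above background.

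Of 15744 features, 15208 were not controls. Spots of one probe were averaged as log2 after subtraction of the array's 75th percentile, and a gene is its brightest tested probe. Of 15008 probes, 1583 were named through accession (717), symbol (511), gene ID (125), synonym (20) or the files' own name (210); names come from RefSeq's table. limma 3.58.1 in R 4.3.3 was fitted to group plus slide, with Benjamini-Hochberg adjustment over 12940 probes. For the shared direction the larger p of the 2 strata was adjusted where the signs matched. The scripts were tested on simulated data.

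The members and lists were chosen with earlier results of these data known. The text names up to 12 genes per direction by lowest p with the same sign in both strata, up to 3 per list, a panel, and up to 5 by the difference between strata. List members outside that rule, such as ADCYAP1, HSD11B1, ICAM1, IL1A, NFKBIA and LEPR, are examples chosen after their values were seen. Of the genes by lowest p, 1 lower one is not reported here and is left out of the figures and counts of the remaining 23. Alternatives covered background correction, normalization, filter, slide, replicate number, moderation, model, array weights, probe choice and leaving out each array. Same-numbered fetuses were not paired by the labels.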

Additional observations from a re-analysis of the deposited data

Results flagged for a closer look

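Dixon's test at its 95% critical value was applied to 372 groups of up to 4 fetuses, over 93 genes, and marked 26 single values as far from the rest of their group. Chance alone marks about 1 in 20 such groups. Values are log2 signals. In the BCO group replicate 4 stood apart most often: SLC15A1 at -5.43 (median of the others -6.94), CD247 at 0.91 (-0.34), NOX4 at -5.79 (-5.11), PTGER4 at -5.66 (-4.66), OXTR at -7.93 (-6.16), GH at -6.55 (-9.12) and SST at 1.79 (3.00). BCO replicate 1 was apart for NOS3 at -2.61 and CGA at 0.012, where the other BCO fetuses had a median of -6.68. BCO replicate 2 was apart for NEUROD1 at -4.66 and BCO replicate 3 for DCN at 2.25.

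Among estradiol+BCO fetuses replicate 3 was apart for PCSK1 at -3.49 (median of the others -2.37), SLCO2A1 at -1.85, ISL1 at -3.40 and SST at 2.88, replicate 1 for ATF4 at 0.94 and replicate 4 for AHSP at -2.60. Estradiol fetuses apart from their group were replicate 2 for TAC3 at -0.19 (median of the others -2.32) and for COL3A1 at -3.57, replicate 4 for CD247 at -0.40, replicate 1 for SLC6A4 at -7.995 and replicate 3 for ITGB2 at -0.53. In control, replicate 1 was apart for NR5A1 at -8.60 and PTCH1 at -4.43, and replicate 2 for CD3E at -2.42 and DCN at 1.24.

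The occlusion effects with and without estradiol differed by limma's adjusted p under 0.05 for A_70_P055401 (with minus without -1.30), A_70_P036801 (-1.08) and A_70_P005946 (-1.03). In AGGF1 (-0.74), FTO (-0.80) and PSIP1 (-0.89) all 4 occluded fetuses were above sham without estradiol and below it with estradiol, and the difference did not pass after adjustment.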

How the results depend on the processing

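The 23 genes of lowest p kept the direction of their average under every alternative run. They were chosen by this average on the same arrays, so a kept direction is a description and no independent evidence. AGRP ranged from -3.85 to -2.58, PCSK1 from -0.79 to -0.56, SLC2A3 from 0.30 to 0.58 and SLC15A1 from 0.11 to 1.35. The same sign in both strata was lost for SLC15A1, PRND and PDXK with normexp correction, and for TCRD19 and CRHBP on slide 1 alone. Probes called higher, and probes called in both strata, numbered 0 throughout. Probes called lower ranged from 0 to 2 when 1 array was left out, the 2 (A_70_P010776 and A_70_P059971, limma adjusted p = 0.0253) appearing without BCO replicate 2. At unadjusted p under 0.05, leaving out 1 array gave 878 to 1416 probes and slide 1 alone 491, with fewer samples. Same-sign probes with both p under 0.05 numbered 37 to 134 with 1 array left out and 21 on slide 1 alone. The replicate block, with the number in place of slide, gave 0 calls, 1103 probes at unadjusted p under 0.05 and 74 in both strata. Deviations of same-numbered fetuses from the mean of their group on their slide correlated at -0.218 to 0.118, so the numbers were not taken as pairs. Each such mean is of 2 fetuses, so replicates 1 and 2 give the same correlations, as do replicates 3 and 4. Effects of 10 genes, none of them called, changed sign, and the cause was not tested: DDIT3 -0.0091 with normexp, PTGER4 0.0059 with all probes averaged, PTGER3 0.0396 and AREG 0.0197 on slide 2 alone, MET 0.0182 and SLC1A2 0.0410 on slide 1 alone, and ITGB2 0.0007 without estradiol+BCO replicate 2 (-0.1395 to 0.0007 over the arrays left out). EGR1 was 0.0039 with median centring, 0.14 on slide 2, 0.0237 with array weights, 0.32 with all probes averaged and -0.0517 to 0.0553 with an array left out. PTGS2 was 0.03 with normexp, 0.18 on slide 1 and -0.2104 to 0.2347 with an array left out. PSIP1 was 0.0043 on slide 1 and -0.0818 to 0.0241 with an array left out. With normexp correction 7 of the 23 averages shrank by over 1.5 times: GHRH to -2.18, TCRD19 to -0.30, SLIT2 to -0.21, SELP to 0.57, GGCX to 0.205, and SLC15A1 and PRND to 0.11 each. The effects within a stratum with 1 array left out were an alternative chosen after seeing the data.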

Other observations

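Monoamine and acetylcholine genes lay mostly on the lower side in occluded fetuses, 6 of 8 measured, with a median of -0.34. SLC6A4, the serotonin transporter, averaged -0.43 ± 0.16 (SE) and was well above background on 5 of 16 arrays, and AANAT, the melatonin-making enzyme, averaged -0.30 ± 0.14. In the oxidative stress list XDH, xanthine dehydrogenase, was at -0.63 without and -0.71 with estradiol. It was well above background on 10 of 16 arrays, and normexp correction reduced these effects to -0.10 and -0.31. SOD2, the mitochondrial superoxide dismutase, averaged -0.18 ± 0.08. A second SOD2 probe, sharing 30 bases, gave -0.03, with 0.16 without and -0.22 with estradiol. None of the genes named in this paragraph passed limma's adjusted p.

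Angiogenesis genes were divided, 13 of 22 higher and 9 lower, with a median of 0.03 that was -0.02 with normexp correction. TEK, the angiopoietin receptor, averaged -0.46 ± 0.16 on a probe well above background on 7 arrays, and the endothelial nitric oxide synthase NOS3 averaged 0.23 ± 0.10 (SE each). Insulin and IGF genes had a median of 0.03 over 13 genes, with IGF2, a fetal growth factor, at -0.64 without and -1.36 with estradiol. Prostaglandin genes had a median of -0.08 over 8, and the prostaglandin E receptors PTGER4 and PTGER3 averaged -0.45 ± 0.22 and -0.22 ± 0.11. Other PTGER4 probes ran from -0.13 to 0.22, so the probes of PTGER4 disagree in sign, and the mean of all of them gave 0.0059. PTGER3 was at 0.04 on slide 2 alone. The markers NEUROD1 and LEF1 of thalamus and telencephalon averaged -0.48 and -0.30.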
